A study of Homo sapiens with 8 samples.

Results

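The genes described here encode the RAB GTPases and the coat, golgin, cargo receptor and translocon proteins that move material through the secretory and endocytic pathways. Members were chosen by symbol among probesets annotated to a single gene (RAB, GOLGA, GOLM and GOLIM4, COPA, COPB, COPE and COPZ, SEC13 to SEC63 and TMED genes), and the probeset with the highest mean stood for its gene. This gave 110 genes out of 18417 with such a probeset, comprising 60 RAB genes and 50 Golgi, coat and translocon genes. Probesets whose mean fell in the dimmest quartile of both lines were not tested, which left 106 members (58 and 48). RAB25, RAB41, SEC16B and TMED6 were not tested for this reason, with mean log2 signals of 4.70 to 5.06 and differences between -0.11 and 0.01.

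Spheroids about 300 μm across were compared between OVCAR-8R, a cisplatin-resistant line selected from OVCAR-8 by rising doses of the drug that ended at 5 μM, and OVCAR-8 itself, a human ovarian adenocarcinoma line that received no selection. The sample labels name the resistant line OVCAR-8C, and its resistance outlasted removal of the drug. Total RNA was profiled on 4 Affymetrix Human Gene ST arrays per line, and values are log2 RMA signals. OVCAR-8R is 1 selected line, so what selection and what later culture contributed cannot be told apart, and p-values measure the spread between arrays of a line. Fewer cells of a type and less RNA per cell cannot be told apart in whole spheroids either.

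Median log2 signal ran from 6.68 to 6.73 over OVCAR-8R arrays and from 6.67 to 6.73 over OVCAR-8 arrays, and over the tested members no pair of arrays of a line correlated below 0.994, while the highest value between lines was 0.890. Within OVCAR-8R, arrays 1 and 3 deviated together over all probesets kept by the filter (r = 0.427), as did arrays 2 and 4 (r = 0.484). Across lines, OVCAR-8R arrays 2 and 4 deviated with OVCAR-8 replicate 4 (r = 0.383 and 0.443) and OVCAR-8R arrays 1 and 3 with OVCAR-8 replicate 2 (r = 0.353 and 0.276). The labels name no batch. Of 9 ovarian epithelial markers 5 were higher in OVCAR-8R, including PAX8 (10.3 against 6.51 in OVCAR-8) and KRT7 (10.8 against 6.36), while WT1 (6.19 against 7.05) and CDH1 (6.02 against 6.25) were lower by under 2-fold, with arrays that did not overlap. MUC16 averaged 5.74 against 5.67 and KRT19 6.40 against 6.32. Their summed linear signal was 11476 to 12478 in OVCAR-8R and 1889 to 2193 in OVCAR-8. The fibroblast list (4 genes) summed to 833 to 924 against 277 to 329, chiefly through COL1A1 (9.50 against 7.46), with DCN at 3.90 and 3.91. Endothelial and leukocyte markers stayed between 3.86 and 5.78 in both lines. The part of these markers in the trafficking results was not tested.

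RAB proteins are small GTPases that switch between a GTP-bound form, which recruits effectors such as motors and tethers to a membrane, and a GDP-bound form, and each marks particular compartments. Guanine nucleotide exchange factors (GEFs, many with a DENN domain) switch them on and GTPase-activating proteins (GAPs, many with a TBC domain) switch them off. Newly made proteins enter the endoplasmic reticulum (ER) through the SEC61 translocon, leave in COPII-coated vesicles, are captured by golgins and pass back in COPI-coated vesicles, with TMED proteins serving as cargo receptors in both directions.

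Among the 106 tested members, 10 were at least 2-fold higher in OVCAR-8R at an adjusted p under 0.05 (limma, Benjamini-Hochberg over all probesets kept), or 9.43%, against 8.37% of all 15931 tested genes. A further 7 were at least 2-fold lower, or 6.6%, against 8.37% of all genes. As a whole the members therefore passed the 2-fold test about as often as genes at large. All 17 had arrays that did not overlap between lines, as did 71 members in all (67%) and 56.8% of all tested genes. The largest rises were those of RAB38, RAB3B and RAB27B, and the largest falls those of GOLIM4 and RAB39A.

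**Figure D1:**
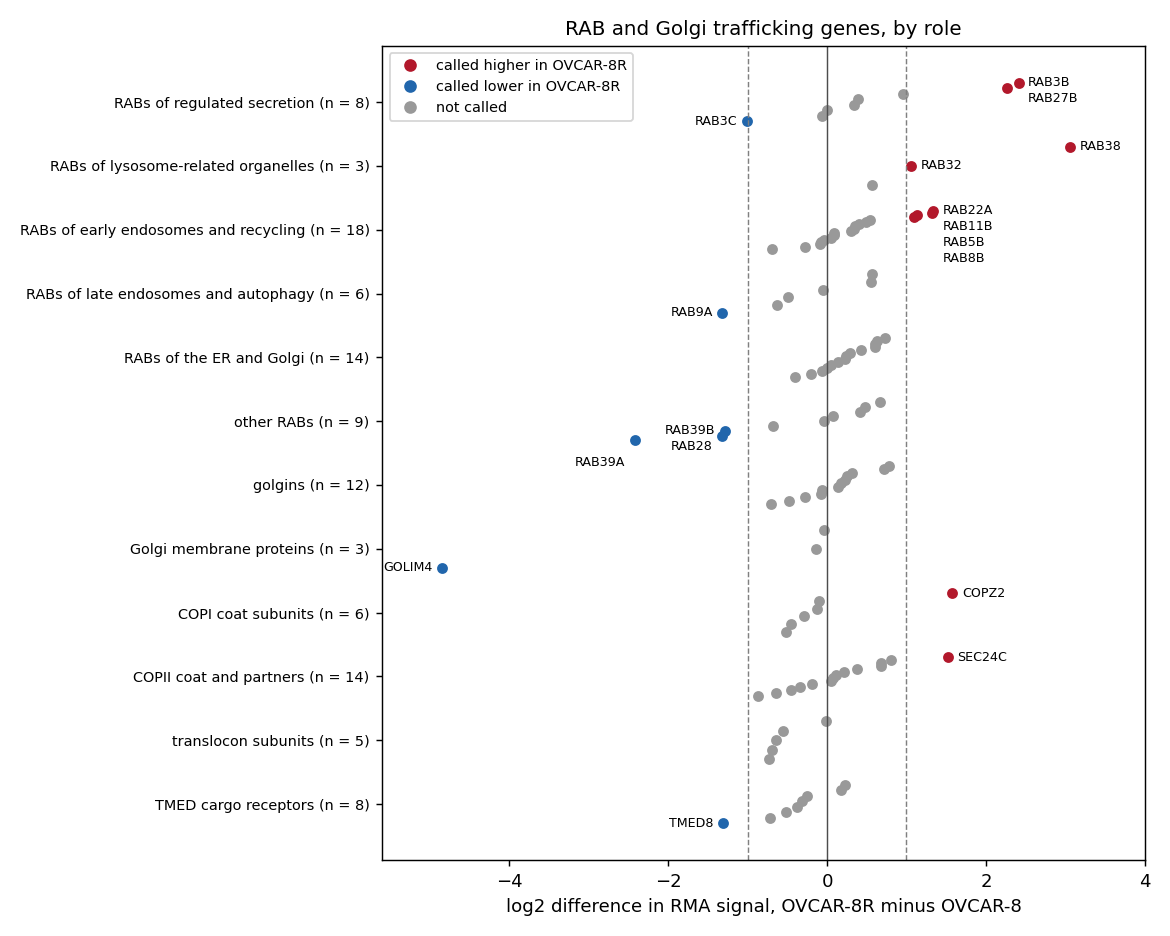
Each point is a tested member, placed by its log2 difference in RMA signal (OVCAR-8R minus OVCAR-8, horizontal axis) and grouped by role (vertical axis, number tested in brackets). Dashed lines mark a 2-fold difference, red and blue points are members that passed the test, and RAB38 at 3.06 and GOLIM4 at -4.85 lie at the ends.

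When differences of any size were counted, RAB genes and the other members parted. Of 58 RAB genes 30 (51.7%) were higher in OVCAR-8R and 10 (17.2%) lower, where 27.6% of all genes were higher and 30.0% lower. Of 48 Golgi, coat and translocon genes 10 (20.8%) were higher and 20 (41.7%) lower. Median differences were 0.27 for the RAB genes, -0.12 for the other members and -0.01 for all genes. Cyclic loess scaling left the RAB counts at 31 higher and 10 lower but brought the Golgi, coat and translocon counts to 16 higher and 18 lower, with a median of -0.04. The shares of all genes were not computed under cyclic loess, so its counts here and in the groups below have no matching background. These counts are descriptions, and no test set one family against the other.

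RABs of regulated secretion, which dock and prime secretory vesicles at the plasma membrane, held both strong rises and a fall. RAB3B, a RAB of synaptic and hormone-secreting vesicles, had log2 signals of 9.21, 9.28, 9.18 and 9.26 in OVCAR-8R, against 6.83, 6.73, 6.87 and 6.84 in OVCAR-8. The lines were far apart and each was tight, and the difference was 2.41 (SE 0.07, 5.32-fold, adjusted p = 3.01e-09). RAB27B, which acts in secretory granule docking and exosome release, had 7.53, 7.95, 7.41 and 7.81 in OVCAR-8R, against 5.47, 5.42, 5.33 and 5.43 in OVCAR-8. All resistant arrays were above all sensitive arrays, with arrays 2 and 4 of OVCAR-8R the highest, and the difference was 2.26 (SE 0.12, 4.81-fold, adjusted p = 2.06e-07).

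RAB3C, another vesicle RAB, went the other way, with 5.24, 5.18, 5.32 and 5.15 in OVCAR-8R and 6.19, 6.25, 6.21 and 6.28 in OVCAR-8. Its difference of -1.01 (SE 0.07, adjusted p = 1.09e-06) sat at the 2-fold threshold and dropped under it without OVCAR-8R replicate 2 or 4 or OVCAR-8 replicate 4 (differences from -1.04 to -0.99 over all single arrays left out). RAB3D, a RAB of exocrine granules, had a difference of 0.96 (SE 0.09) and lay just outside the threshold. RAB3A, the main RAB of synaptic vesicles, averaged 7.28 ± 0.11 in OVCAR-8R and 7.28 ± 0.09 in OVCAR-8 (SD, n = 4 each). RAB37, known from mast cell granules, averaged 5.41 against 5.47 in OVCAR-8. Of the 8 tested genes in the group 5 were higher at any size (62.5%, against 27.6% of all genes) and 1 lower (12.5%, against 30.0%).

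RAB38 and RAB32, which direct enzymes to melanosomes and other lysosome-related organelles, were both higher in OVCAR-8R. RAB38 had log2 signals of 8.79, 9.10, 8.87 and 9.05 in OVCAR-8R, against 5.99, 5.98, 5.74 and 5.86 in OVCAR-8. This was the largest rise among the members, at 3.06 (SE 0.09, 8.32-fold, adjusted p = 6.95e-09). RAB32 had 9.60, 9.42, 9.57 and 9.36 against 8.41, 8.43, 8.47 and 8.39 in OVCAR-8, a difference of 1.06 (SE 0.08, adjusted p = 1.73e-06) only just past the threshold. RAB29, which works at the trans-Golgi network and lysosomes, had the smallest difference of the 3, at 0.57 (SE 0.08).

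**Figure D2:**
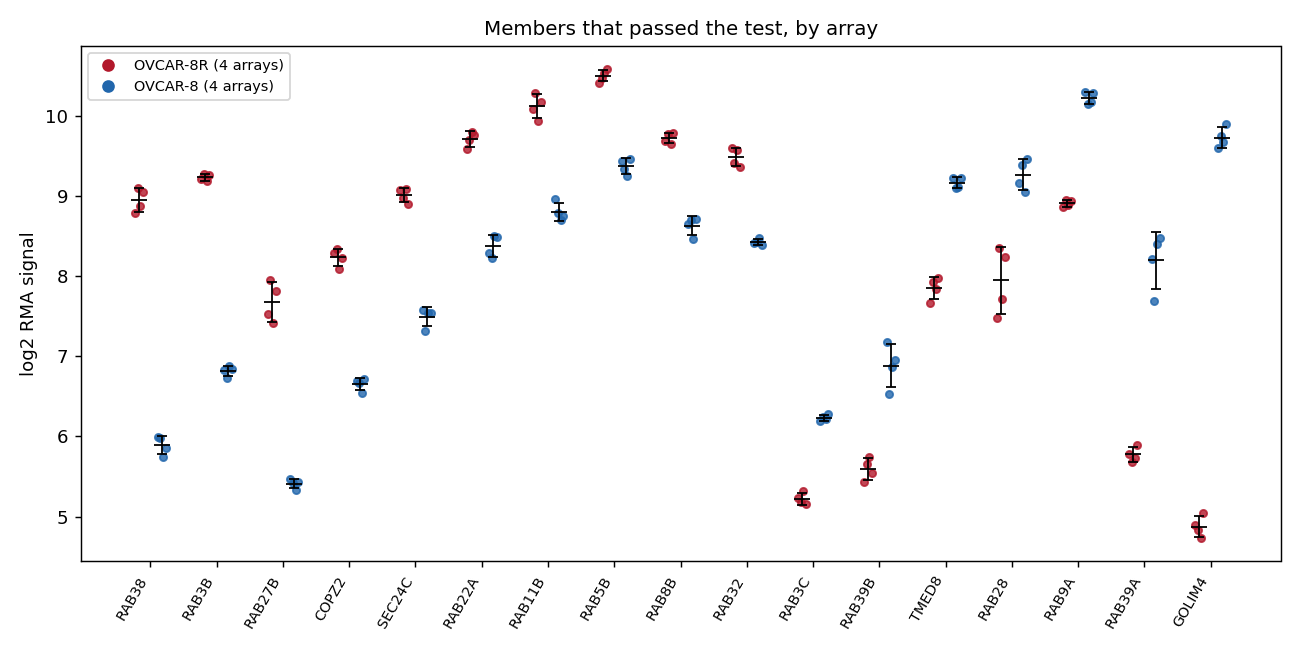
Log2 RMA signal (vertical axis) of the 17 members that passed the test, with OVCAR-8R arrays in red to the left of OVCAR-8 arrays in blue for each gene, ordered from the largest rise to the largest fall. Points are single arrays and black bars show mean and SD (n = 4), and for every gene shown the lines do not overlap.

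Early endosomal and recycling RABs gave 4 of the 10 rises. At any size 10 of 18 tested were higher (55.6%, against 27.6% of all genes), with RAB4A as the 1 lower (5.56%, against 30.0%). RAB22A, which controls early endosome sorting and recycling, had 9.58, 9.70, 9.80 and 9.76 in OVCAR-8R, against 8.29, 8.22, 8.50 and 8.49 in OVCAR-8, a difference of 1.33 (SE 0.09, adjusted p = 1.17e-06). RAB11B, a RAB of recycling endosomes, had 10.1, 10.3, 9.93 and 10.2 against 8.96, 8.78, 8.70 and 8.75 in OVCAR-8, a difference of 1.32 (SE 0.09, adjusted p = 1.81e-06). Neither gene's arrays overlapped between lines.

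RAB5B, which drives early endosome fusion, had 10.4, 10.5, 10.5 and 10.6 in OVCAR-8R and 9.44, 9.34, 9.25 and 9.46 in OVCAR-8, a difference of 1.13 (SE 0.08). RAB8B, which carries cargo to the plasma membrane, had 9.69, 9.77, 9.65 and 9.78 in OVCAR-8R and 8.66, 8.69, 8.46 and 8.71 in OVCAR-8, a difference of 1.09 (SE 0.08). Both lay close to the threshold with tight arrays. RAB4A, a RAB of fast recycling, averaged 8.25 ± 0.11 in OVCAR-8R and 8.94 ± 0.09 in OVCAR-8 (SD, n = 4 each), a difference of -0.69 that did not reach 2-fold. RAB10, RAB14 and RAB31, named here after their values were seen, repeated the pattern of OVCAR-8R arrays 2 and 4 lying above arrays 1 and 3, as RAB10 shows with 11.1, 11.5, 11.2 and 11.7.

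Late endosomal and autophagy RABs were mixed, with 2 of 6 higher (33.3%) and 3 lower (50%) at any size, against 27.6% and 30.0% of all genes. RAB39A, which is also found on late endosomes and fell further than any of them, was counted among the remaining RABs below. RAB9A, which returns mannose 6-phosphate receptors to the Golgi, had 8.86, 8.95, 8.88 and 8.93 in OVCAR-8R, against 10.3, 10.1, 10.2 and 10.3 in OVCAR-8. It was lower by a difference of -1.32 (SE 0.07, adjusted p = 1.91e-07). RAB9B, its paralog, averaged 6.63 ± 0.07 in OVCAR-8R and 7.26 ± 0.15 in OVCAR-8 (SD, n = 4 each), without reaching 2-fold. RAB7A, which drives fusion of late endosomes with lysosomes, had a difference of 0.57 (SE 0.11) on its brighter probeset and 1.1 (SE 0.17, adjusted p = 0.000369) on a dimmer probeset. Its rise thus passed the 2-fold test on 1 of 2 probesets, and the choice of probeset decided the call.

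RABs of the ER and Golgi gave small differences, from -0.40 for RAB18, a RAB of lipid droplets and the ER, to 0.73 for RAB1C, annotated as a pseudogene. Of 14 tested 7 were higher at any size (50%, against 27.6% of all genes) and 1 lower (7.14%, against 30.0%). RAB1B, RAB6A and RAB43, also chosen after their values were seen, had differences of 0.60, 0.61 and 0.63. RAB1 proteins act between ER and Golgi and RAB6 proteins in Golgi-to-ER return. Whether RAB1C probes also bind RAB1A or RAB1B transcripts was not tested.

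The remaining RABs, counted outside these classes, held 3 of the 5 falls among RAB genes. These were 3 of the 9 tested in the group, where 8.37% of all genes were called lower. RAB39A, a RAB of phagosomes and late endosomes, had 5.78, 5.68, 5.73 and 5.90 in OVCAR-8R, against 8.22, 7.69, 8.40 and 8.47 in OVCAR-8. The lines were separated by more than the spread of OVCAR-8, whose replicate 2 was the lowest, and the difference was -2.42 (SE 0.16, 5.36-fold, adjusted p = 8.95e-07). RAB39B, known for its role in neurons, had 5.43, 5.66, 5.75 and 5.54 in OVCAR-8R and 7.17, 6.53, 6.87 and 6.95 in OVCAR-8, a difference of -1.29 (SE 0.13, adjusted p = 2.19e-05).

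RAB28, a RAB linked to cilia and photoreceptors, had 7.48, 8.36, 7.71 and 8.24 in OVCAR-8R and 9.17, 9.39, 9.05 and 9.46 in OVCAR-8. The difference was -1.32 (SE 0.19, adjusted p = 0.000259) and its OVCAR-8R SD of 0.42 was far above the median of 0.10 over the members. The spread ran along the same pairing of arrays, with 1 and 3 lowest, and leaving out single arrays moved the difference between -1.45 and -1.16. RAB23, a negative regulator of Hedgehog signalling, had the highest value of this group, 0.66 (SE 0.10).

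GOLIM4 gave the largest difference of any member. It encodes a cis-Golgi membrane protein that cycles through endosomes. Its log2 signals were 4.89, 4.83, 4.73 and 5.04 in OVCAR-8R, against 9.59, 9.74, 9.67 and 9.90 in OVCAR-8. All OVCAR-8R values lay under the lowest-quartile bound of 5.11 for that line, so its signal there is at the level of the dimmest probesets. The fitted difference was -4.85 (SE 0.09, adjusted p = 3.81e-10, 28.9-fold), and set against the bound of 5.11 GOLIM4 was at least 24.5-fold lower in OVCAR-8R. GOLM1 and GOLM2, the other Golgi membrane protein genes, had differences of -0.04 (SE 0.06) and -0.14 (SE 0.08).

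Genes with golgin symbols, a family named for coiled-coil tethers of the Golgi, had differences between -0.71 and 0.79, all under 2-fold. At any size 4 of 12 were higher (33.3%) and 3 lower (25%), near the 27.6% and 30.0% of all genes. GOLGA3 averaged 8.64 ± 0.06 in OVCAR-8R and 7.85 ± 0.06 in OVCAR-8 (SD, n = 4 each). GOLGA5, a tether of retrograde vesicles, averaged 9.59 ± 0.09 in OVCAR-8R and 10.3 ± 0.13 in OVCAR-8. GOLGA2, the cis-Golgi tether also called GM130 and named after its value was seen, had a difference of 0.71 (SE 0.08). The golgin symbols include the pseudogenes GOLGA2P5, GOLGA2P9 and GOLGA2P11 and the antisense gene GOLGA4-AS1, whose probesets ran from 5.46 to 6.87 in mean signal. GOLGA2P5 was counted as lower (-0.28). GOLGA7 and GOLGA7B, which are not coiled-coil tethers, were counted as higher (0.26 and 0.32).

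Among the members chosen by symbol, each coat had a single gene past the threshold. COPZ2, an alternative zeta subunit of COPI, had 8.29, 8.33, 8.08 and 8.23 in OVCAR-8R, against 6.69, 6.67, 6.55 and 6.72 in OVCAR-8, a difference of 1.58 (SE 0.08, adjusted p = 1.64e-07). The other 5 COPI subunits listed had differences between -0.52 (COPB2) and -0.11 (COPE). Of the 6 listed, 3 were lower at any size (50%, against 30.0% of all genes, and 2 under cyclic loess). COPG1 and ARCN1, COPI subunits outside the symbol rule and counted below as partners, went in opposite directions, at 0.51 (SE 0.08) and -0.48 (SE 0.08). SEC24C, a COPII subunit that selects cargo, had 9.08, 8.97, 9.09 and 8.90 in OVCAR-8R and 7.58, 7.31, 7.54 and 7.54 in OVCAR-8. Its difference was 1.52 (SE 0.08, adjusted p = 3.10e-07).

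SEC23B, a GTPase-activating COPII subunit, averaged 10.2 ± 0.09 in OVCAR-8R and 11.1 ± 0.05 in OVCAR-8 (SD, n = 4 each), a difference of -0.87 just outside the threshold. Its paralog SEC23A had a difference of 0.07 (SE 0.07), with arrays that overlapped between lines. SEC16A, a scaffold of ER exit sites, had a difference of 0.81 (SE 0.07). Of the 14 genes tested in the group of COPII coat and partners 5 were higher (35.7%) and 4 lower (28.6%) at any size, against 27.6% and 30.0% of all genes. Cyclic loess gave 8 and 4. These counts include SEC22B and SEC22C (both 0.68) and SEC22A (-0.34), which are not coat subunits. Apart from COPZ2 and SEC24C, the tested members of the COPI and COPII groups had differences between -0.87 and 0.81.

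**Figure D3:**
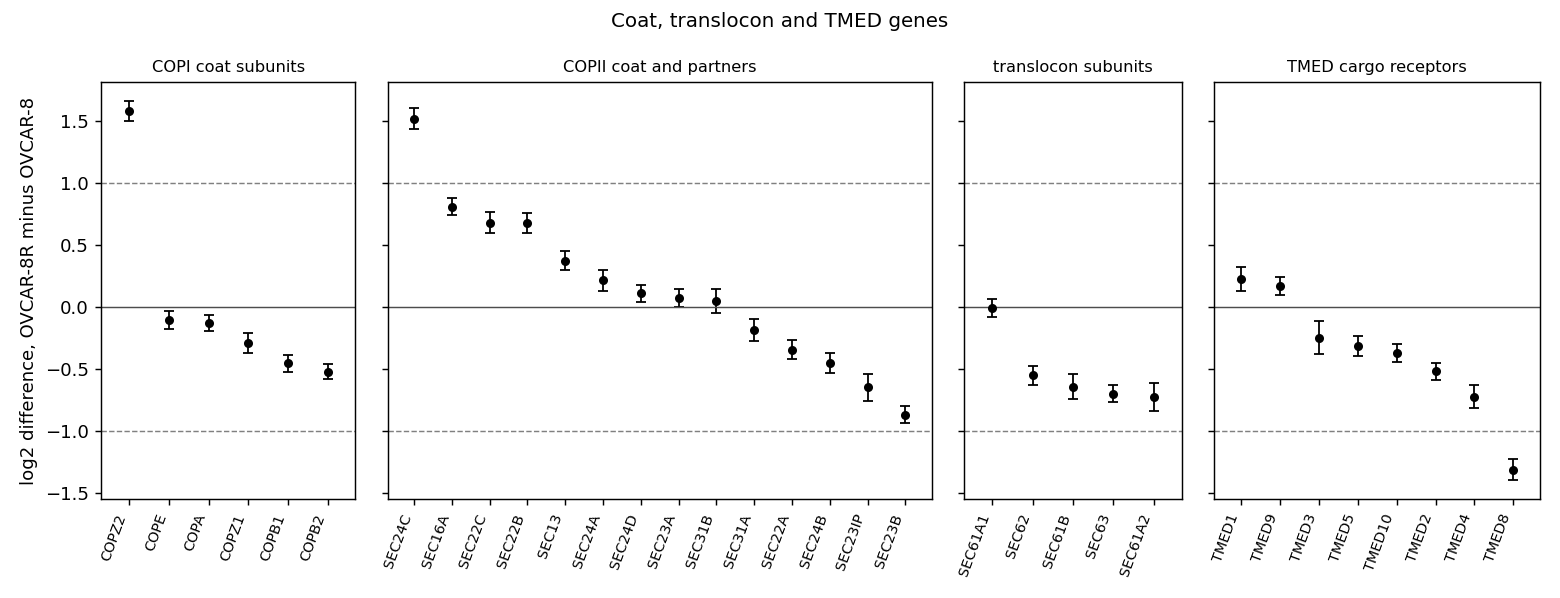
Log2 difference in RMA signal (OVCAR-8R minus OVCAR-8, vertical axis) with its SE for each tested member of the COPI, COPII, translocon and TMED groups, ordered within each group, with dashed lines at 2-fold. COPZ2 (1.58), SEC24C (1.52) and TMED8 (-1.31) are the genes past the dashed lines.

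Translocon genes lay mostly below 0. SEC63, SEC62 and SEC61B, which with SEC61A form and gate the channel, had differences of -0.70 (SE 0.07), -0.55 (SE 0.08) and -0.64 (SE 0.10), and SEC61A2 had -0.73 (SE 0.12). These 4 of 5 (80%, against 30.0% of all genes) were lower at any size, also under cyclic loess, and the group median was -0.64. SEC61A1, the main pore subunit, averaged 11.2 ± 0.05 in OVCAR-8R and 11.2 ± 0.08 in OVCAR-8 (SD, n = 4 each), and its sign changed with the scaling.

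TMED genes followed the same direction, with 5 of 8 lower at any size (62.5%, against 30.0% of all genes). Cyclic loess gave 4 lower and 1 higher. TMED8, counted here by its symbol and not an established cargo receptor, had 7.67, 7.93, 7.84 and 7.98 in OVCAR-8R, against 9.23, 9.10, 9.11 and 9.23 in OVCAR-8. It was lower by a difference of -1.31 (SE 0.08, adjusted p = 8.85e-07) with no overlap. TMED2 and TMED10, which form the core of the receptor complexes and are named after their values were seen, had differences of -0.52 (SE 0.07) and -0.37 (SE 0.07). TMED1 had the highest value of the group, 0.22 (SE 0.10), which did not pass the test.

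Changes of paralogs within a family were set against each other pair by pair. Over 31 pairs the difference between the changes of 2 paralogs was tested across arrays by an exact two-sided permutation test of the within-array log2 ratio, in which the smallest possible p is 0.0286. In 27 pairs p was at that limit (Benjamini-Hochberg adjusted p = 0.0328 over the 31), and in 15 the unequal change was at least 2-fold. The same share was not computed for unrelated gene pairs, and with 56.8% of all tested genes not overlapping between lines, many such pairs could reach this limit too. RAB3B minus RAB3C gave 3.42 (SE 0.07), RAB27A minus RAB27B gave -1.93 (SE 0.16), and RAB32 minus RAB38 gave -2.0 (SE 0.15). A ratio within an array shows unequal change and does not set the level of one gene against another.

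Several pairs joined a member past the 2-fold threshold with a paralog under it. RAB11A minus RAB11B gave -1.36 (SE 0.07), with RAB11A at 11.2 ± 0.14 in OVCAR-8R and 11.2 ± 0.05 in OVCAR-8 (SD, n = 4 each). COPZ1 minus COPZ2 gave -1.87 (SE 0.08), and SEC24B minus SEC24C gave -1.97 (SE 0.10). RAB5B minus RAB5C gave 1.20 (SE 0.07). The 4 pairs that did not pass were RAB2A and RAB2B (0.25, SE 0.13), RAB33A and RAB33B (-0.13, SE 0.15), COPB1 and COPB2 (0.07, SE 0.05) and SEC24A and SEC24D (0.10, SE 0.07).

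**Figure D4:**
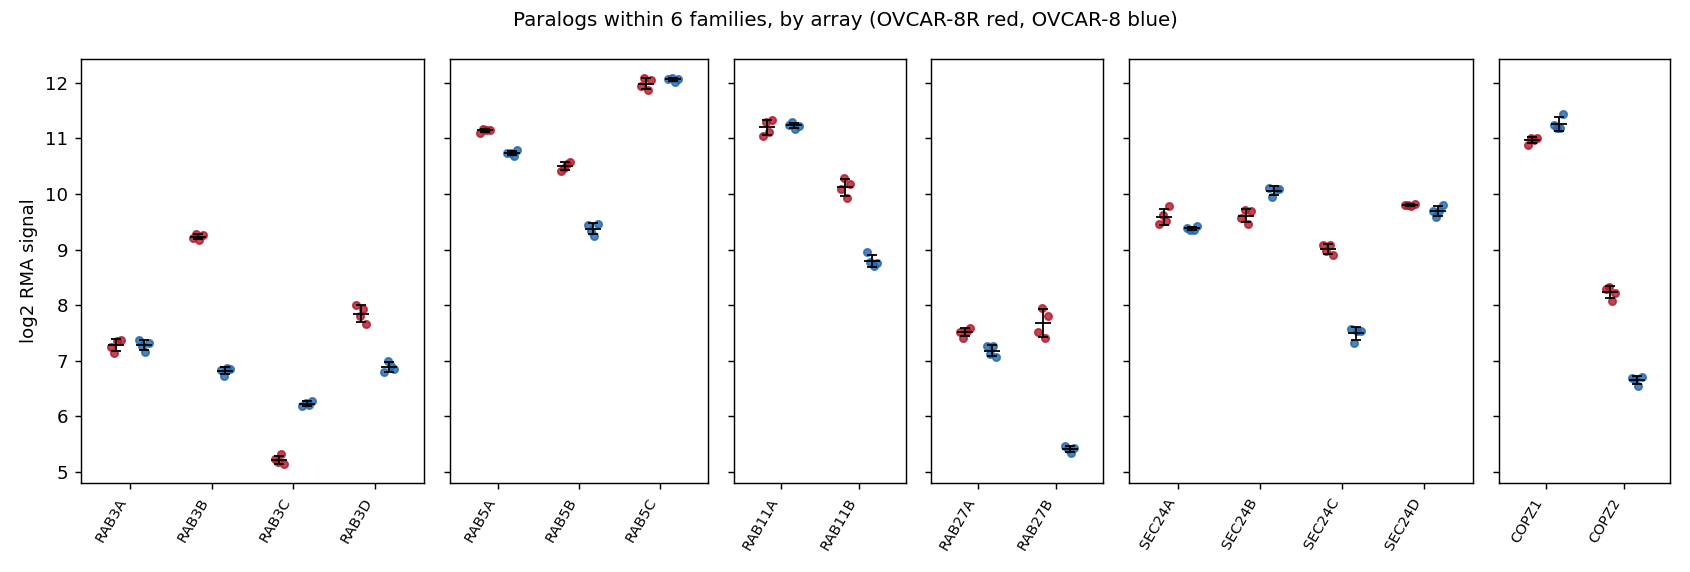
Log2 RMA signal (vertical axis) by array for the RAB3, RAB5, RAB11, RAB27, SEC24 and COPZ paralogs, with OVCAR-8R in red to the left of OVCAR-8 in blue and bars for mean and SD (n = 4 per line). RAB3B, RAB5B, RAB11B, RAB27B, SEC24C and COPZ2 are higher in OVCAR-8R by 1.13 to 2.41, RAB3C is lower (-1.01), and levels of different genes are not comparable because each probeset has its own scale.

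Promoter sequence is shown for 4 members, the RAB3 paralogs that moved in opposite directions, RAB27B and GOLIM4. RefSeq promoter windows of the assembly GRCh38.p14 matched 87 members and 15 of the 17 that passed the test, and RAB38 and RAB39B had no entry. Each run gives the 250 bases before the annotated gene start, 5′ to 3′ on the gene's strand, and capitals mark a motif match. The windows are chr1:51990701-51990950 (minus strand) for RAB3B, chr5:58582825-58583074 (plus) for RAB3C, chr18:54717607-54717856 (plus) for RAB27B and chr3:168095925-168096174 (minus) for GOLIM4.
RAB3B: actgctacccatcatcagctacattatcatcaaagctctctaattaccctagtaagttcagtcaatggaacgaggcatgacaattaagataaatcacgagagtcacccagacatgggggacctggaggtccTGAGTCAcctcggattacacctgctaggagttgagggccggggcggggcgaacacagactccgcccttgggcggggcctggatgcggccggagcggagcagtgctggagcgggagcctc
RAB3C: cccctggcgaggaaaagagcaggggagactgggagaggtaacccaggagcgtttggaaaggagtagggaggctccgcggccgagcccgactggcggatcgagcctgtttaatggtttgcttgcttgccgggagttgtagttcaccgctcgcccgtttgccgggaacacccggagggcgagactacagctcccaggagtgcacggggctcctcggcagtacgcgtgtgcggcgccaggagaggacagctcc
RAB27B: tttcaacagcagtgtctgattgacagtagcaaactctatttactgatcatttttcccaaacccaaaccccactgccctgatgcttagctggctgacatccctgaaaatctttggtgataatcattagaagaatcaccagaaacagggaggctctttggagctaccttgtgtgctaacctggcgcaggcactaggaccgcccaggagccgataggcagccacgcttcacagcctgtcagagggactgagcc
GOLIM4: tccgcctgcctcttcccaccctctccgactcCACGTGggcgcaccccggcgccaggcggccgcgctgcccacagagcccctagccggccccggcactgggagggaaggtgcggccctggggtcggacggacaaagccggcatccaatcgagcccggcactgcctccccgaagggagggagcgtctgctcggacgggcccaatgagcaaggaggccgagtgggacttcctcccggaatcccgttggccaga

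The motifs searched on both strands were the AP-1 site TGANTCA, the TEAD site GGAATG, the E-box CACGTG and the cAMP response half-site TGACGT, none of which contains another. RAB3B held TGAGTCA at position -119 from the gene start, and GOLIM4 held CACGTG at position -219. None of the 4 motifs was in the RAB3C or RAB27B window. The AP-1 site was in 6.6% of all 27303 windows of this length and in 5 of 87 member windows (5.75%), and among the members that passed the test RAB3B and RAB5B held it. The TEAD site was in 11.9% of all windows and 10.3% of member windows, including those of RAB11B and RAB28.

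The E-box was in 6.49% of all windows and 12.6% of member windows, and the cAMP response half-site in 7.42% and 13.8%. Member windows also held more CpG dinucleotides, with a median of 20 against 11 in all windows, and base composition was not matched. RAB27B had 4 CpG, RAB3B 12, RAB3C 21 and GOLIM4 24. These matches describe the letters in the window, not occupied sites.

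Regulators and effectors of RABs were examined as companion genes, 177 measured of 186 listed and 176 tested over 6 lists, of which 14 (7.95%) were at least 2-fold higher in OVCAR-8R and 10 (5.68%) lower. Both shares were below the 8.37% of all tested genes called in each direction. Among 57 RAB regulators 6 were higher (10.5%) and, at any size, 28 were higher (49.1%) and 14 lower (24.6%), where all genes gave 27.6% and 30.0%. TBC1D2, a GAP for RAB7, averaged 9.52 ± 0.11 in OVCAR-8R and 6.39 ± 0.39 in OVCAR-8 (SD, n = 4 each), a difference of 3.13. TBC1D5, a GAP that acts with the retromer, and DENND3, a GEF for RAB12, had differences of 1.99 (SE 0.10) and 1.96 (SE 0.10).

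RAB effectors gave 5 higher (13.5%) and 2 lower (5.41%) of 37, against 8.37% of all genes in each direction. At any size 21 were higher (56.8%, against 27.6% of all genes) and 7 lower (18.9%, against 30.0%). Effectors of RAB27 on the list moved unequally, and those other than MLPH were picked out after their values were seen. MLPH, melanophilin, which links RAB27 to a myosin motor, had a difference of 1.62 (SE 0.10), and SYTL3, a RAB27-binding synaptotagmin-like protein, had 1.5 (SE 0.11). SYTL2 and UNC13D had 0.92 and 0.54, SYTL1, SYTL4 and MYRIP had 0.23, 0.21 and 0.24, EXPH5 had -0.55 (SE 0.10), and SYTL5 was too dim to test (-0.74). RPH3A, which binds RAB3 and RAB27, had -0.02 (SE 0.10). OPTN, optineurin, a RAB8 effector, had 1.87 (SE 0.08) beside the RAB8B difference of 1.09. The other RAB8 gene, RAB8A, had 0.30 (SE 0.11), with arrays that overlapped between lines. PLEKHM1, a RAB7 effector in lysosome fusion, had 1.99 (SE 0.23) with an SD of 0.55 in OVCAR-8. RAB11FIP2, an effector of RAB11 in recycling, was lower (difference -1.13, SE 0.10) while RAB11B was higher, and MYO5C, a myosin of secretory granules, was also lower (difference -1.82, SE 0.13).

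Early secretory partners changed in both directions. Of 23 COPII partners and ER-Golgi SNAREs (fusion proteins) 1 was higher (4.35%) and 4 lower (17.4%), against 8.37% of all genes in each direction. ERGIC1 had 1.54 (SE 0.08) and ERGIC2 -1.49 (SE 0.12), both proteins of the ER-Golgi intermediate compartment. The SNAREs STX17 and BET1 had -1.81 (SE 0.10) and -1.03 (SE 0.09). SAR1B, the GTPase of the COPII coat, was not a member by symbol and was lower at -1.01 (SE 0.11), close to the threshold. BET1 dropped under 2-fold without OVCAR-8 replicate 2 (-0.99) or 4 (-0.96). Of 19 translocon and signal recognition partners 1 was higher (5.26%) and 3 lower (15.8%), where 8.37% of all genes were called in each direction. TRAM2 had 2.03 (SE 0.12) and the signal peptidase subunit SEC11C -1.82 (SE 0.16). SSR4, a translocon-associated protein, had -1.42 (SE 0.09) and SRPRB, a subunit of the signal recognition particle receptor, -1.16 (SE 0.06). At any size, 11 translocon partners (57.9%) and 12 COPII partners (52.2%) were lower, against 30.0% of all genes, and 1 (5.26%) and 5 (21.7%) were higher, against 27.6%.

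Golgi tethers gave 1 higher and 1 lower of 28 (3.57% each, against 8.37% of all genes in each direction). These were TRAPPC9 of the TRAPP complex at 1.31 (SE 0.08) and COG6 of the COG complex at -1.07 (SE 0.09). At any size 8 were higher (28.6%, near the 27.6% of all genes) and 15 lower (53.6%, against 30.0%). The 12 COPI partners tested had differences between -0.88 and 0.80, with 3 higher and 2 lower at any size. As shares of the 12, these counts were below the 27.6% higher and 30.0% lower of all genes.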

How the data were processed

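Signals were measured on 8 arrays, 4 of OVCAR-8R and 4 of OVCAR-8 spheroids. The authors computed RMA signals in Affymetrix Expression Console, and the deposited intensity values are on the linear scale, so log2 was taken here. RMA equalizes the distribution of the arrays, which removes any overall difference between lines. Of 33297 probesets, 19460 are annotated to 1 gene, 1754 to several (named from none) and 12083 are unnamed here, and 19429 of the first were found in a RefSeq gene table. Arrays give no read depth, and their number limits the precision. As in the study's methods, a probeset was dropped where each line's mean fell among its dimmest 25% (below 5.11 for OVCAR-8R and 5.16 for OVCAR-8 on the log2 scale), leaving 25628 probesets and 15931 genes. Lines were compared with limma 3.58.1 (lmFit and eBayes, R 4.3.3), Benjamini-Hochberg adjustment over all kept probesets, an adjusted p under 0.05 and at least 2-fold. The script was tested on simulated data. Genes named were those passing the test, the highest and lowest member of each role, and up to 3 per direction of each companion list. All other genes named with values (such as RAB3A, RAB3D, RAB37, RAB9B, GOLM2, SEC16A, SEC61B, SEC62, SEC63 and the paralogs compared) were chosen after their values were seen. Members, roles and companion lists were chosen with earlier results of these data known. Arrays titled as biological replicates were treated as replicates, and nothing states that they came from separate cultures, so the spread may be technical. Alternatives covered the filter, the size of difference, the test, the scaling, the choice of probeset, a replicate block, array weights and dropping single arrays.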

Additional observations from a re-analysis of the deposited data

Results flagged for a closer look

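Of 98 sets of 4 arrays (49 named genes in 2 lines), 3 held an array far from the other 3 by Dixon's test, where chance gives about 5% of sets, and all 3 were OVCAR-8 replicate 2. SEC24C had a log2 signal of 7.31 there, against 7.54 to 7.58 in the other OVCAR-8 arrays. SEC61A2 had 8.71, against 8.90 to 8.94. TRAM2 had 8.18, against 8.52 to 8.58.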

How the results depend on the processing

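Over 21 alternatives and 49 named genes, 985 of 1028 values kept their direction and their side of the threshold, 20 dropped under it, 19 moved past it and 4 changed sign. With 10 members higher and 7 lower as reported (companions 14 and 10), any size of difference gave 40 and 30 (companions 66 and 61), at least 1.5-fold gave 21 and 17 (companions 33 and 27), and limma's treat for more than 2-fold gave 6 and 4 (companions lower 5). Treat ended the calls of RAB11B, RAB28, RAB32, RAB39B, RAB3C, RAB5B and RAB8B, and cyclic loess and 3 of the single-array omissions ended that of RAB3C; the filter at the median left RAB3C untested (10 and 6), and the other 10 called members kept theirs under all alternatives. Among named companions, treat also ended the calls of BET1, COG6, RAB11FIP2 and SRPRB, cyclic loess those of BET1 (-0.96) and COG6 (-0.99), and array weights that of BET1 (-0.98). Over all companions cyclic loess gave 16 higher and 7 lower, and the any-size counts of each companion list were not computed under it. Leaving out single arrays gave 10 to 11 members higher and 6 to 7 lower, and 14 to 15 and 8 to 10 companions. Cyclic loess turned GOLM1 to 0.078 and SEC61A1 to 0.125, and leaving out single arrays moved SEC61A1 between -0.048 and 0.011, above 0 when OVCAR-8R replicate 4 or replicate 3 of OVCAR-8 was dropped; the cause was not tested. Median differences over all kept probesets were -0.025 as deposited, -0.033 with arrays centred and 0.00916 with cyclic loess. With the replicate block, 10 members were higher and 7 lower, and 14 and 10 companions; deviations of same-numbered arrays correlated at 0.165, -0.323, -0.0515 and 0.443, not above 0.1 for every number, so the numbers were not treated as pairs.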

Other observations

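Of the array's probesets, 54 carried several gene names including one of the RAB, Golgi, coat, translocon or TMED symbols and so named no gene. In OVCAR-8R 1 of them was at least 2-fold higher (log2 difference 1.08), and the lowest difference among them was -0.45.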
